A study of Homo sapiens with 6 samples.

Results

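The 9 genes described here encode the core of the PI3K, AKT and FOXO pathway: the catalytic subunits PIK3CA and PIK3CB, the regulatory subunits PIK3R1 and PIK3R3, the lipid phosphatase INPP4B, the kinases PDPK1 and AKT1, and the transcription factors FOXO1 and FOXO3. They were chosen by symbol, all 9 were found among the 17990 genes of the table, and all 9 are among the 11916 genes called measured here, with 20 or more counts on average over the libraries. RNA was sequenced from LNCaP cells, an established human prostate cancer line that responds to androgen, in 6 libraries. DHT (dihydrotestosterone, a potent natural androgen) at 10 nM was given for 3, 6, 12, 24 or 48 h, with 1 library per time, and 1 library came from untreated cells at 0 h. Every culture, the untreated one included, had first been kept for 3 days without phenol red in medium whose serum had been treated with charcoal and dextran, which lowers its steroid hormones. The question of the series is which transcripts androgen regulates, and when.

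As background, PI3K is a pair of a catalytic and a regulatory subunit that is recruited to activated receptors and adds a phosphate to a membrane lipid, giving PIP3. PIP3 draws the kinases AKT and PDPK1 to the membrane, PDPK1 activates AKT, and AKT phosphorylates FOXO factors, which then leave the nucleus and stop activating their target genes. Lipid phosphatases oppose the signal, and INPP4B acts on a product further down from PIP3. INPP4B is known as a gene induced by androgen in prostate cells.

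With 1 library per time there was no spread between replicates and no p-value. Levels are counts scaled to the library total (CPM), with 95% exact Poisson intervals that cover counting error only, and a gene is called higher or lower when its change against 0 h, as log2 of (CPM + 1) at a DHT time over (CPM + 1) at 0 h, is at least 2-fold. Libraries held 13179917 to 20587956 counts. All 7 luminal and LNCaP markers examined, such as KLK3, lay between 49.95 and 11949.9 CPM in all libraries, while markers of basal epithelium and leukocytes reached at most 0.660 CPM, and of 4 fibroblast and endothelial markers only COL1A1 was above that, at 31.2 to 64.3 CPM. The known androgen-induced genes FKBP5, TMPRSS2 and KLK3 had log2 changes of 5.25, 3.47 and 1.08 at 24 h. In the 12 h library the measured genes of chromosome 4 stood at a median of 10.4% of their mean level at 6 and 24 h (389 genes), against 104% over the 11070 genes outside chromosome 4 and the distal part of chromosome 15, which was low in the same way. INPP4B lies on chromosome 4, and its 12 h value is therefore not used. Changes also went with transcript GC content, measured in 11140 genes, with a Pearson r across genes of 0.23 at 3 h, -0.74 at 6 h, -0.43 at 12 h, -0.51 at 24 h and -0.56 at 48 h, so changes are mostly given below also with that trend removed by a lowess curve. The 12 h r and the 12 h curve include the genes of chromosome 4 and distal chromosome 15. All comparisons share the 0 h library.

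After 24 h with DHT the members split. INPP4B was 10.2 times and PIK3CA 2.57 times its level at 0 h, while the regulatory subunits PIK3R1 and PIK3R3 were at 0.399 and 0.469 times theirs. PIK3CB, PDPK1, AKT1, FOXO1 and FOXO3 stayed short of 2-fold. Thus 2 of 9 members were higher and 2 lower, or 44.4% called, where 21.3% of the 11916 measured genes were called (10.5% higher and 10.8% lower). With TMM scaling, another way to set library sizes, the calls over all genes split into 1581 higher and 1018 lower at 24 h, against 1249 and 1287 as scaled here, and into 109 and 67 at 3 h, against 89 and 103. At 48 h the same 4 members were called, in the same directions, where 22.4% of all genes were (15% higher and 7.33% lower). After removal of the GC trend INPP4B, PIK3R1 and PIK3R3 stayed past 2-fold at both times and PIK3CA did not, where 13.7% of genes were called at 24 h and 12% at 48 h. The median log2 change of the 9 members was 0.35 at 24 h and 0.15 at 48 h, where that of all measured genes was -0.09 and -0.06. At 3 h PIK3CA and PIK3R1 were lower and no member was higher, where 1.61% of all genes were called (0.747% higher and 0.864% lower). At 6 h INPP4B and PIK3CA were higher, where 18.3% were called (15.3% higher and 3.01% lower), and at 12 h none of the 8 members used was called, where 15.5% of the genes outside the affected regions were. After removal of the GC trend no member was past 2-fold at 3 or 6 h, where 1.37% and 5.36% of genes were, and PIK3R1 was lower at 12 h, where 7.1% of the genes outside the affected regions were called.

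**Figure D1:**
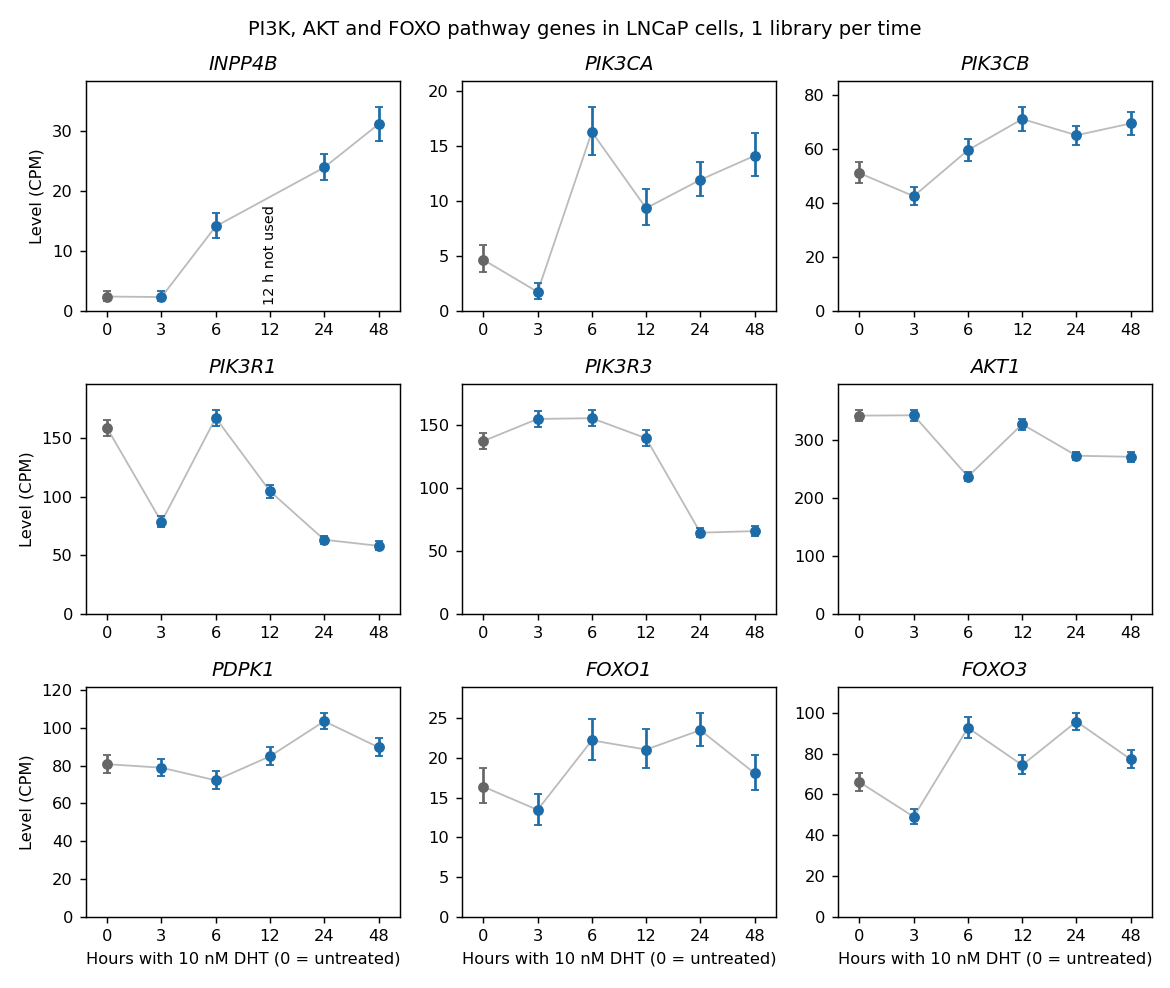
Levels of the 9 genes in CPM (y axes, each from 0) in the untreated library (grey, 0 h) and after 3 to 48 h with 10 nM DHT (blue, x axis in hours, evenly spaced); each point is 1 library and bars are 95% Poisson intervals. INPP4B is at 31.2 CPM at 48 h against 2.35 CPM at 0 h, and PIK3R1 and PIK3R3 end near 58 and 66 CPM, below their 0 h levels of 158 and 138 CPM.

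INPP4B had the largest change of the members at 6, 24 and 48 h, as scaled against 0 h. With the GC trend removed PIK3R1 at 48 h, at -2.18, was past the 2.09 of INPP4B, and against the 3 h library PIK3CA at 6 h, at 2.68, was past the 2.21 of INPP4B. It encodes an inositol polyphosphate 4-phosphatase, which takes a phosphate off the lipid PI(3,4)P2 and so acts against AKT recruitment. Its level was 2.35 CPM at 0 h (1.60 to 3.34), 2.27 CPM at 3 h (1.55 to 3.20), 14.1 CPM at 6 h (12.2 to 16.3), 23.9 CPM at 24 h (21.9 to 26.2) and 31.2 CPM at 48 h (28.4 to 34.1). The first 2 libraries lay together and the 3 later ones stood above them, each higher than the one before. Over 0 h the ratio was 5.99 at 6 h (4.08 to 9.07), 10.2 at 24 h (7.08 to 15.1) and 13.3 at 48 h (9.21 to 19.7), from 31 counts at 0 h. Its transcript has a GC content of 37.2%, and the log2 changes of 2.17, 2.90 and 3.26 at 6, 24 and 48 h were 0.99, 2.12 and 2.09 with the GC trend removed. The 24 h change lay above those of 99.4% of measured genes, and of 98.7% after that removal. In the untreated library INPP4B had been a low gene, above 5.02% of the measured genes.

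The regulatory subunits fell, on different schedules. PIK3R1 encodes p85 alpha and its shorter forms, which stabilise the catalytic subunit and hold it inactive until a receptor is engaged. Its level was 158 CPM at 0 h (152 to 165), 78.4 CPM at 3 h (73.8 to 83.1), 167 CPM at 6 h (160.3 to 174), 104.6 CPM at 12 h (99.2 to 110.1), 63.1 CPM at 24 h (59.8 to 66.7) and 58.0 CPM at 48 h (54.2 to 61.9). The 3 h library was low between 2 high ones, and from 6 h on the level was lower at each time than at the one before, the last step within counting error. Its ratio to 0 h was 0.495 at 3 h (0.46 to 0.533), 0.399 at 24 h (0.372 to 0.428) and 0.366 at 48 h (0.338 to 0.396). The log2 change of -1.01 at 3 h lies at the threshold and was -0.92 with TMM scaling, short of 2-fold. At its GC content of 40.3% the trend across genes stood at -0.26 at 3 h, 0.86 at 6 h, 0.71 at 12 h, 0.54 at 24 h and 0.75 at 48 h. With the GC trend removed the log2 changes were -0.75 at 3 h, -0.78 at 6 h, -1.31 at 12 h, -1.85 at 24 h and -2.18 at 48 h, without the return at 6 h. Set against the 3 h library in place of 0 h, PIK3R1 had log2 changes of -0.31 at 24 h and -0.43 at 48 h, short of 2-fold, and with the GC trend removed as well -1.11 and -1.45.

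PIK3R3 encodes p55 gamma, a shorter regulatory subunit. It had 138 CPM at 0 h (131 to 144), 155 CPM at 3 h (149 to 162), 156 CPM at 6 h (149 to 163), 139.8 CPM at 12 h (134 to 146), 64.6 CPM at 24 h (61.1 to 68.1) and 65.8 CPM at 48 h (61.8 to 70.02). The first 4 libraries lay between 138 and 156 CPM and the last 2 below 66 CPM, with no overlap of their intervals. From 12 to 24 h the level changed by a factor of 0.462 (0.43 to 0.496), and from 24 to 48 h by 1.02 (0.938 to 1.11). The log2 changes of -1.08 and -1.05 at 24 and 48 h lie close to the threshold. The 24 h value was -0.94 with TMM scaling, which moves the median of all genes by 0.13 at that time, and -0.99 with median-of-ratios scaling, both short of 2-fold. With TMM scaling the 48 h value was -0.99, also short. After removal of the GC trend the changes were -1.15 at both times.

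To show the sequence near the starts of the regulatory subunits that were lower at 24 and 48 h and of INPP4B, 3 windows are printed from RefSeq on GRCh38.p14, each from 250 bases before to 50 bases after an annotated start and read 5′ to 3′ on the gene's strand. RefSeq gives 4 such windows for PIK3R1 and 6 each for PIK3R3 and INPP4B. The windows were taken by gene and were not matched to the transcripts that the counts are given for. The PIK3R1 and PIK3R3 windows were picked because they hold the motif below, which 2 of the 4 PIK3R1 windows and 3 of the 6 PIK3R3 windows do not, and the INPP4B window is the one farthest upstream. Capitals mark AGAACA or its reverse complement TGTTCT, the half-site of the androgen response element. The PIK3R1 window is chr5:68290414-68290713 on the plus strand, the PIK3R3 window chr1:46132746-46133045 on the minus strand, and the INPP4B window chr4:142846252-142846551 on the minus strand.
PIK3R1: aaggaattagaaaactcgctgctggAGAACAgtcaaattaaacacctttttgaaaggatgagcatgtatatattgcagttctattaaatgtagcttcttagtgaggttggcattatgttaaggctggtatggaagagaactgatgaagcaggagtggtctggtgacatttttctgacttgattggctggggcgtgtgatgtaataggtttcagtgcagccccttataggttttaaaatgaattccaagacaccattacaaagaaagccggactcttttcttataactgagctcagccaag
PIK3R3: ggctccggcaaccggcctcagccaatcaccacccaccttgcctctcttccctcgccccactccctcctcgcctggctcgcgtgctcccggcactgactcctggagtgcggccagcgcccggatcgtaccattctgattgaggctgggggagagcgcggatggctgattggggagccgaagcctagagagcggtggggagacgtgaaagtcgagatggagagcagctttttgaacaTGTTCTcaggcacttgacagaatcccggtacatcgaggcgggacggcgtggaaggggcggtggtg
INPP4B: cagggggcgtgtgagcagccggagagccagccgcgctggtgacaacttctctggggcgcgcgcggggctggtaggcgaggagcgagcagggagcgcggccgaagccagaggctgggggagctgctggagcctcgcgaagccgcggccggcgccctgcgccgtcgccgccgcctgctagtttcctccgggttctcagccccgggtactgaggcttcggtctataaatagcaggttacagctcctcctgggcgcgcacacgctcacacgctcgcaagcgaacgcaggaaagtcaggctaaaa
In these windows the half-site begins 225 bases before the PIK3R1 start and 15 bases before the PIK3R3 start, and none of these letters stand in the INPP4B window. Of all 35116 RefSeq windows 14.8% hold AGAACA on either strand, and so do 5 of the 27 windows of the 9 members, all of them of PIK3R1 or PIK3R3, some of which overlap. By gene, 17.5% of 27305 genes have a window with the motif, and so do 2 of the 9 members. The full palindrome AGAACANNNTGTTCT is in 1 of the 35116 windows and in none of the members'. The FOXO element GTAAACA, on either strand, is in 3.42% of all windows and, of the members, in that of PIK3CA. A match is a description of letters and not a binding site.

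The catalytic subunits PIK3CA and PIK3CB differed in how far they moved. PIK3CA encodes p110 alpha, the catalytic subunit that growth factor receptors mainly use. Its level was 4.63 CPM at 0 h (3.54 to 5.95), 1.70 CPM at 3 h (1.09 to 2.53), 16.3 CPM at 6 h (14.2 to 18.6), 9.32 CPM at 12 h (7.77 to 11.1), 11.9 CPM at 24 h (10.5 to 13.5) and 14.1 CPM at 48 h (12.3 to 16.1). The 3 h library was the lowest and the 6 h library the highest, and every library from 6 h on stood above 0 h. Its ratio to 0 h was 0.367 at 3 h (0.219 to 0.598), 3.51 at 6 h (2.63 to 4.75), 2.57 at 24 h (1.94 to 3.46) and 3.04 at 48 h (2.28 to 4.12). At 12 h the ratio was 2.01 (1.47 to 2.78), which on the log2(CPM + 1) scale is 0.87 and short of 2-fold. At 34.8% its GC content is lower than that of all but 0.835% of the measured genes, and its log2 changes of -1.06, 1.62, 1.20 and 1.42 at these times were -0.66, 0.21, 0.26 and -0.048 with the GC trend removed, none past 2-fold and the last of the opposite sign. Parts of PIK3CA also have a pseudogene copy elsewhere in the genome, and how the authors' counting treated such reads is not given in the sources used here.

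PIK3CB encodes p110 beta, a catalytic subunit that also responds to G protein-coupled receptors. It had 50.9 CPM at 0 h (47.1 to 54.9), 42.4 CPM at 3 h (39.04 to 45.9), 59.4 CPM at 6 h (55.4 to 63.7), 71.0 CPM at 12 h (66.6 to 75.6), 64.9 CPM at 24 h (61.5 to 68.5) and 69.3 CPM at 48 h (65.2 to 73.7). It was lowest at 3 h and stood above 0 h in every later library, by a factor of 1.28 at 24 h (1.16 to 1.40) and 1.36 at 48 h (1.23 to 1.5), short of 2-fold. With the GC trend removed its log2 changes of 0.22, 0.35 and 0.44 at 6, 24 and 48 h were -0.73, -0.27 and -0.44, of the opposite sign.

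**Figure D2:**
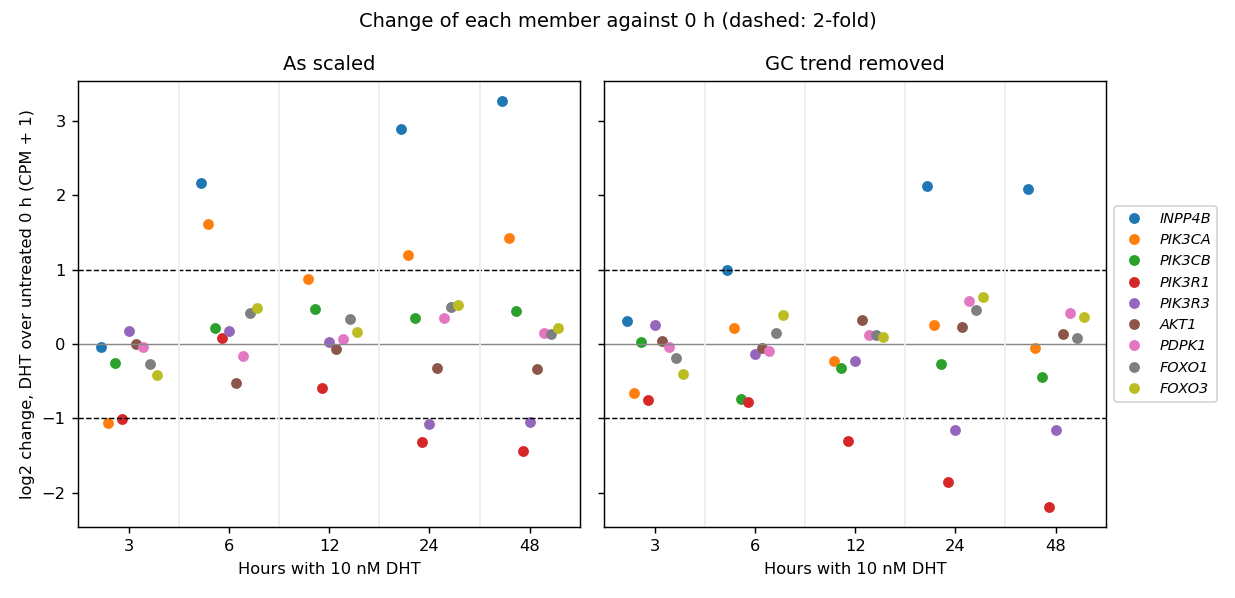
Log2 change of each of the 9 members against the untreated 0 h library (y axis) at each time with DHT (x axis, hours), as scaled (left) and with the lowess trend on GC content removed (right); dashed lines mark 2-fold. INPP4B at 24 and 48 h, and PIK3R1 and PIK3R3 at the same times, lie outside the lines in both panels, while PIK3CA is outside at 3, 6, 24 and 48 h on the left only.

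**Figure D3:**
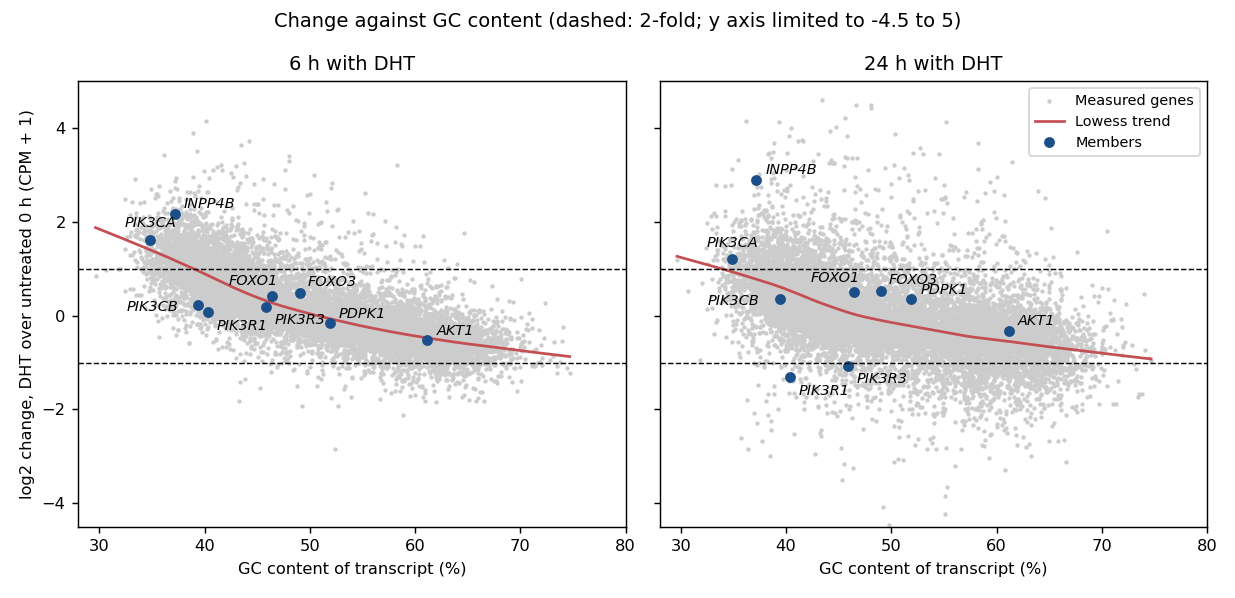
Log2 change against untreated 0 h (y axis) by GC content of the transcript in percent (x axis) at 6 h (left) and 24 h (right) with DHT for the measured genes with a GC value (grey), the lowess trend (red) and the 9 members (blue). PIK3CA, at 34.8% GC, lies near the trend at both times, while at 24 h INPP4B lies 2.12 above it and PIK3R1 lies at -1.85 relative to it.

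PDPK1 and AKT1, the protein kinases among the members, stayed within 2-fold of 0 h at every time. PDPK1 encodes the kinase, also called PDK1, that phosphorylates AKT in its activation loop. Its level was 80.8 CPM at 0 h (76.02 to 85.8), 78.9 CPM at 3 h (74.4 to 83.7), 72.3 CPM at 6 h (67.8 to 77.0), 85.0 CPM at 12 h (80.2 to 90.01), 103.6 CPM at 24 h (99.2 to 108.05) and 89.7 CPM at 48 h (85.0 to 94.6). The 24 h library was the highest, 1.28 times the 0 h level (1.19 to 1.38), or a log2 change of 0.35 that was 0.58 with the GC trend removed. PDPK1 has a near-identical copy, PDPK2P, and its reads may have been split between them.

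AKT1, the most abundant of the 9 members per length, encodes the kinase at the centre of the pathway. It had 342 CPM at 0 h (333 to 353), 343 CPM at 3 h (333 to 353), 237 CPM at 6 h (229 to 245), 328 CPM at 12 h (318 to 337), 273 CPM at 24 h (266 to 280.4) and 271 CPM at 48 h (263 to 279.7). The 6 h library was the lowest, at 0.692 times the 0 h level (0.661 to 0.724), and the last 2 were equal within counting error, at 0.797 (0.767 to 0.829) and 0.792 (0.759 to 0.827) times that level. Its GC content is 61.2%, and the log2 changes of -0.53, -0.33 and -0.34 at 6, 24 and 48 h became -0.05, 0.22 and 0.14 with the GC trend removed.

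FOXO1 and FOXO3, the transcription factors that AKT keeps out of the nucleus and that promote cell cycle arrest and apoptosis, had similar time courses. FOXO1 had 16.4 CPM at 0 h (14.3 to 18.7), 13.5 CPM at 3 h (11.6 to 15.5), 22.2 CPM at 6 h (19.8 to 24.9), 21.1 CPM at 12 h (18.7 to 23.6), 23.5 CPM at 24 h (21.5 to 25.7) and 18.1 CPM at 48 h (15.99 to 20.4). FOXO3 had 66.01 CPM at 0 h (61.7 to 70.5), 49.03 CPM at 3 h (45.4 to 52.8), 92.6 CPM at 6 h (87.5 to 97.9), 74.3 CPM at 12 h (69.8 to 79.1), 95.7 CPM at 24 h (91.5 to 100.01) and 77.2 CPM at 48 h (72.8 to 81.7). Both were lowest at 3 h and highest at 24 h, and both were lower at 48 h than at 24 h, by factors of 0.769 (0.66 to 0.894) and 0.806 (0.749 to 0.867). The 24 h intervals of both overlap those at 6 h, and that of FOXO1 also overlaps its 12 h interval. FOXO1 at 3 h lay within counting error of 0 h, with a ratio of 0.821 (0.672 to 1.003). At 24 h their ratios to 0 h were 1.43 (1.22 to 1.69) and 1.45 (1.34 to 1.57), short of 2-fold, and their log2 changes of 0.50 and 0.53 were 0.46 and 0.63 with the GC trend removed. FOXO1 at 48 h lay within counting error of 0 h, with a ratio of 1.10 (0.919 to 1.32). FOXO3 has a near-identical copy, FOXO3B, from which its reads may not have been separable.

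Levels per length, which allow for transcript length as annotated, gave a rough order of the members. Taking the transcript whose accession the table gives, AKT1 was at 119.5 CPM per kilobase at 0 h, ahead of PIK3R3 at 24.5, PIK3R1 at 22.6, PDPK1 at 11.2, FOXO3 at 8.99, PIK3CB at 8.60, FOXO1 at 2.86, PIK3CA at 0.509 and INPP4B at 0.266 CPM per kilobase. PIK3R3 and PIK3R1 lay close together at 0 h, as did FOXO3 and PIK3CB. At 48 h INPP4B, at 3.53 CPM per kilobase, stood above PIK3CA at 1.55 and close to FOXO1, their counting intervals overlapping, at 3.15 CPM per kilobase. PDPK1 at 12.4 was then above PIK3R1 at 8.27 and close to PIK3R3 at 11.7 CPM per kilobase, their counting intervals overlapping. These levels are not corrected for GC content.

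Other subunits from a list of the pathway put these levels in context. PIK3CD, the catalytic subunit p110 delta best known from leukocytes, held 70.5% of the summed catalytic level per kilobase at 24 h and 80.3% at 0 h, PIK3CB 26.4% and 18.6%, and PIK3CA 3.15% and 1.102%. PIK3CG was listed with 0 counts in both libraries, which allows up to 0.146 CPM at 24 h and 0.228 CPM at 0 h. PIK3R2, which encodes p85 beta, held 64.6% of the summed regulatory level at 24 h and 60.04% at 0 h, and its log2 change at 24 h was -0.91, or -0.27 with the GC trend removed. The summed regulatory level was 58.0 CPM per kilobase at 24 h and 55.9 at 48 h, against 118 at 0 h. The summed catalytic level was 41.6 and 48.2 CPM per kilobase at these times, against 46.2 at 0 h. The catalytic sum was thus 0.392 times the regulatory sum at 0 h, 0.389 at 3 h, 0.548 at 6 h, 0.53 at 12 h, 0.717 at 24 h and 0.862 at 48 h. These sums are not corrected for GC content, and the GC content of PIK3R2 is 64.2%.

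**Figure D4:**
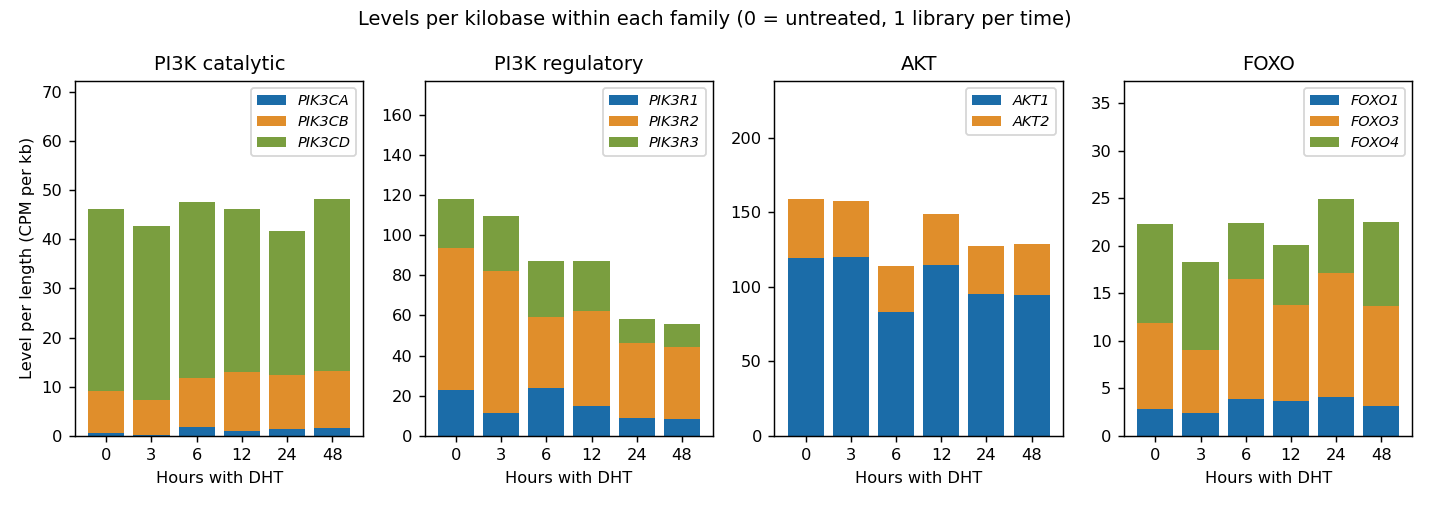
Stacked levels per length in CPM per kilobase (y axes, from 0) of the catalytic and regulatory PI3K subunits, AKT1 and AKT2, and FOXO factors by time (x axis, hours with DHT, 0 being untreated), 1 library per bar. The regulatory stack is 55.9 CPM per kilobase at 48 h against 118 at 0 h, while the catalytic stack stays between 41.6 and 48.2.

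AKT2 stayed within 2-fold of 0 h, with log2 changes of -0.28 at 24 h and -0.21 at 48 h that were 0.19 and 0.23 with the GC trend removed, of the opposite sign. AKT1 held 74.7% of the summed level of AKT1 and AKT2 per kilobase at 24 h and 75.3% at 0 h. Of the FOXO sum, FOXO3 held 52.4% at 24 h and 40.3% at 0 h, and FOXO4 held 31.2% and 46.9%. FOXO4 had log2 changes of -0.42 at 24 h and -0.23 at 48 h that were -0.026 and 0.17 with the GC trend removed.

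The rest of the pathway was taken from 7 lists of genes by role. Of 107 genes 104 were in the table and 90 were measured, and at 24 h 13 of these were higher and 8 lower, 23.3% in all, near the 21.3% of all measured genes. Among 6 other PI3K subunits 1 was higher and 0 lower at 24 h: PIK3C2A, a class II enzyme, at 69.5 CPM against 20.9 CPM at 0 h, a ratio of 3.32 (2.92 to 3.79). Its log2 change of 1.68 was 0.90 with the GC trend removed. Among 9 other phosphatases of inositol lipids, SYNJ1, synaptojanin, was higher with 1.19 (GC trend removed 1.07), and INPP5J, a 5-phosphatase listed as PIB5PA, was lower with -1.38 (removed -0.83). INPP4A, the paralog of INPP4B, was at 30.6 CPM at 24 h and 36.4 CPM at 48 h, against 31.4 CPM at 0 h, log2 changes of -0.04 and 0.21. The median over the list was -0.04 at 24 h, against -0.09 for all genes.

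Of 16 other measured AKT kinases and direct regulators 2 were higher and 2 lower at 24 h. This is 25% called, near the 21.3% of all measured genes (10.5% higher and 10.8% lower). The median log2 change of the list was -0.20, against -0.09 for all genes. MTOR (FRAP1 in the table), the kinase of the complexes mTORC1 and mTORC2, was at 766 CPM at 24 h, against 181 CPM at 0 h, a ratio of 4.22 (4.04 to 4.41), and its log2 change of 2.07 was 2.31 with the GC trend removed. RICTOR, the mTORC2 subunit needed to phosphorylate AKT at its tail, had 1.61 (GC trend removed 0.78). Lower were PIK3IP1, a membrane inhibitor of PI3K, with -1.61 (removed -1.28), and PHLDA3, which competes with AKT for PIP3, with -1.45 (removed -0.95).

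Of 11 other kinases that PDPK1 activates, 3 were higher and 0 lower at 24 h, with a median of 0.72, and 6 were higher and 0 lower at 48 h, where 10.5% and 15% of all measured genes were higher. After removal of the GC trend 4 were higher at each time, where 790 and 797 of 11140 genes were, with medians of 0.30 and 0.50. SGK1, a kinase close to AKT that shares targets with it, was at 17.7 CPM at 24 h, against 0.228 CPM at 0 h, which is 3 counts, so that the ratio of 77.7 has an interval of 26.4 to 378. Its log2 change of 3.93 at 24 h was 3.73 with the GC trend removed. At 48 h SGK1 was lower than at 24 h, at 3.52 CPM, a log2 change of 1.88 that was 1.62 with the trend removed. SGK3, its relative bound to endosomes, had log2 changes of 1.42 at 24 h and 1.72 at 48 h (GC trend removed 1.01 and 1.17), and RPS6KA3, or RSK2, had 1.71 and 2.14 (removed 1.09 and 1.27).

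Of 12 AKT substrates 4 were higher and 0 lower at 24 h, where 10.5% of all measured genes were higher and 10.8% lower, with a median of 0.38. PFKFB2, which makes an activator of glycolysis, was at 196 CPM against 43.5 CPM at 0 h, a ratio of 4.50 (4.13 to 4.93). TBC1D4, the AS160 protein that controls glucose transporter traffic, was at 54.8 CPM against 13.1 CPM, a ratio of 4.20 (3.57 to 4.96), and its relative TBC1D1 had a log2 change of 1.23. With the GC trend removed these 3 had 1.97, 1.99 and 1.35. CHUK, or IKK alpha, had 1.08, or 0.45 with the trend removed. Of 15 other FOXO factors and FOXO regulators, SIRT1, a deacetylase of FOXO proteins, was higher at 24 h with 1.21 (removed 0.69), and none was lower.

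Of 21 measured genes on a list of reported FOXO targets 1 was higher and 5 lower at 24 h, 28.6% called against 21.3% of all genes, with a median log2 change of -0.35 against -0.09. TXNIP, an inhibitor of thioredoxin and glucose uptake, was at 201 CPM at 24 h and 303 CPM at 48 h, against 852 CPM at 0 h, with log2 changes of -2.08 and -1.49. TRIB1, a pseudokinase, had -2.09 at 24 h and -2.28 at 48 h. BBC3, the proapoptotic PUMA, had -1.88 and -1.12, GADD45A, a stress response gene, -1.19 and -0.26, and the cyclin gene CCNG2 -1.06 and -0.23. IRS2, an adaptor of insulin receptor signalling, was the one called higher. It was at 57.7 CPM at 24 h, against 13.2 CPM at 0 h, a log2 change of 2.05 that was 2.53 with the GC trend removed. Some others on the list rose short of 2-fold, such as RBL2 with a ratio of 1.54 at 24 h (1.45 to 1.64). After removal of the GC trend TRIB1, TXNIP, BBC3 and CCNG2 stayed past 2-fold at 24 h with -1.84, -2.30, -1.09 and -1.55, and GADD45A had -0.98. SESN3, a sestrin gene, had -1.47 with the trend removed and -0.69 as scaled. At 48 h 1 was higher, IRS2, and 5 were lower, now with SESN3 and CITED2 in place of GADD45A and CCNG2, where 15% of all genes were higher and 7.33% lower, and the median of the list was -0.26. With the GC trend removed 2 were higher and 4 lower at 48 h, where 797 and 537 of 11140 genes were. The median of the list was then -0.0072, and among the named genes TXNIP had -1.79, TRIB1 -1.98, BBC3 -0.58 and CCNG2 -0.91. Targets of FOXO1 and FOXO3 on the list are also controlled by other factors.

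**Figure D5:**
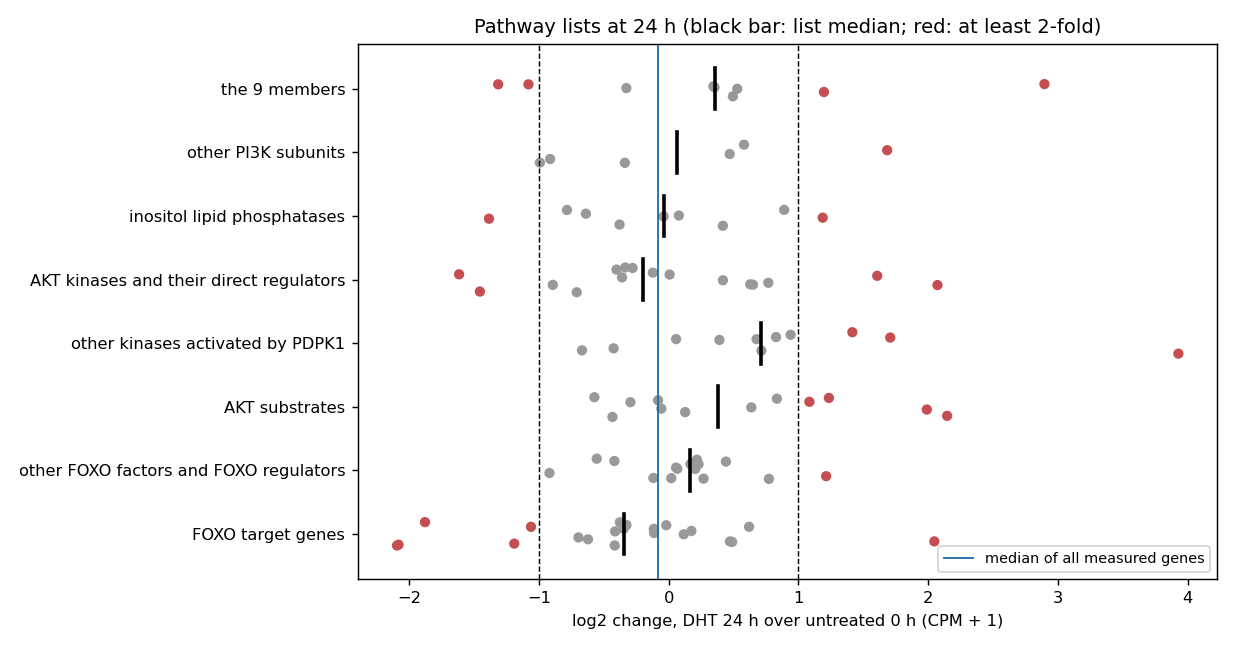
Log2 change of each measured gene at 24 h with DHT against untreated 0 h (x axis) for the 9 members and 7 lists of other pathway genes (rows); red points are at least 2-fold, black bars are list medians, the blue line is the median of all measured genes at -0.09. The AKT substrates have 4 genes past 2-fold on the higher side only, and the FOXO targets 5 on the lower side and 1 on the higher.

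The genes with the nearest profiles were found for the 3 members with the largest change at 24 h, by Euclidean distance over the log2 changes at 3, 6, 24 and 48 h among the 11915 other measured genes. Closest to INPP4B were ERGIC2 (distance 0.20), BCAP29 (0.39) and STK39 (0.43), with log2 changes at 24 h of 2.79, 2.74 and 2.95 beside 2.90 for INPP4B. ERGIC2 and BCAP29 have a GC content of 34.8% and 37.6%, close to that of INPP4B, and STK39 has 46.5%. Closest to PIK3R1 were LRRC4C (0.36), NRG3 (0.47) and SH3RF1 (0.51), with -1.28, -1.56 and -1.16 beside -1.31, and LRRC4C was a low gene at 0.534 CPM at 24 h and 2.73 CPM at 0 h. Among the closest to PIK3CA were PCM1 (0.23) and CP110 (0.30), with 1.12 and 1.16 beside 1.20. PCM1 and CP110 have a GC content of 41.2% and 38.5%, and PIK3CA has 34.8%. The distances were taken without removal of the GC trend.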

How the data were processed

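RNA of 6 libraries was analysed from the deposited table, which holds 2 columns per library. The count column, tags per the file headers, holds whole numbers per RefSeq transcript, deposited without normalization. The RPM column, ppm per the file headers, holds the same counts divided by the authors by the reads of the library, and was used only for its denominators. The submitters' processing notes name the genome build hg19. Not given in the sources used here are the aligner, the counter and whether strand was used. Of 18051 lines 50 exact repeats were removed, and counts were added per symbol. Counts were scaled to CPM over listed genes (a count of 0 allows 3 counts, or 0.146 to 0.228 CPM), and changes are log2 ratios of CPM + 1, which understates the change of low genes. Ratios are of CPM without that addition, with 95% intervals from an exact binomial test given the sum of both counts. They cover counting error only, since each time has 1 library, and no UMIs are mentioned. Length and GC content came from GENCODE v29 transcripts on GRCh38 that carry the accession of the table (93.5% of measured genes), and chromosomes and current symbols from RefSeq on GRCh38.p14. The GC trend was a lowess curve with a span of 0.3 (statsmodels 0.14.6, Python 3.11.15). Scaling alternatives used edgeR 4.0.16 (TMM) and DESeq2 1.42.0 (median of ratios). Distal chromosome 15 is the part from LCTL on, a boundary taken from earlier results. The size rule, the intervals and the GC removal were tested on simulated Poisson counts, with and without a linear GC trend. These simulations hold no variation between libraries beyond counting error.

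The members, the lists and the rules were chosen with earlier results of these data known. Named are all members, the list genes past 2-fold at 24 h (up to 6 per list), AKT2, PIK3CD, PIK3R2 and FOXO4, the nearest profiles, and FKBP5, TMPRSS2 and KLK3. INPP4A, PIK3CG, SESN3 and CITED2 were added after their values were seen. Some genes of the lists and markers are not reported here and were left out of the counts.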

Additional observations from a re-analysis of the deposited data

How the results depend on the processing

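No paired analysis was possible because each time has 1 library. The 4 members called at 24 h and at 48 h gave counts of 3 or 4 under every alternative run, and INPP4B was past 2-fold at both times in each. The members behind a count were not always the same: with the GC trend removed and the 3 h library as baseline, the 4 at 24 h were INPP4B, PIK3R1, PIK3R3 and FOXO3 (FOXO3 1.01), without PIK3CA. PIK3CA was short of 2-fold at both times with a pseudocount of 5 CPM (0.81 and 0.99) and with the GC trend removed. PIK3R1 was short with the 3 h library as baseline alone, and PIK3R3 with TMM scaling (-0.94 and -0.99). The 2 members called at 3 h became 1, PIK3CA, with the denominators of the deposited RPM, with median-of-ratios and with TMM scaling, 0 with a pseudocount of 5 CPM and 0 with the GC trend removed. The 2 called at 6 h became 0 with the GC trend removed and 0 with that and the 3 h library as baseline, a pair of choices added after seeing the data. The 0 called at 12 h became 2 under a 1.5-fold rule, 1 with the GC trend removed and 1 with the 3 h library as baseline. PIK3CA at 48 h had a log2 change of -0.048 with the GC trend removed, against 1.42, a change of sign. Over all genes, the 192, 2185, 2267, 2536 and 2665 called at 3, 6, 12, 24 and 48 h were 57, 1283, 1389, 1538 and 1760 with a pseudocount of 5 CPM, 1269, 4997, 4981, 5453 and 5653 under the 1.5-fold rule, 597, 1270, 1523 and 1334 from 6 h on with the GC trend removed, and 645, 1223, 1555 and 1605 with that and the 3 h baseline. At 3 h 313 were called with a pseudocount of 0.25 CPM. The 21 list genes called at 24 h were 43 under the 1.5-fold rule, which was applied to them after seeing the data. With the GC trend removed the share of higher calls was 68.6%, 70.9% and 34.7% at 3, 6 and 12 h, against 46.4%, 83.6% and 58.0%. The 12 h shares and the 12 h counts over all genes given so far include chromosome 4 and distal chromosome 15. Without these and genes of unknown chromosome 1715 of 11070 genes were called at 12 h, and 753 of 10599 with the GC trend removed. The share of higher calls among the 1715 was 75.1%. With TMM scaling the share of higher calls was 61.9% at 3 h and 60.8% at 24 h (49.3% as scaled). For lack of replicates nothing here separates DHT from other differences between cultures or libraries. Depth limits INPP4B at 0 and 3 h (31 and 32 counts) and PIK3CA at 3 h (24 counts). The causes of these shifts were not tested beyond what each alternative changes by construction.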
